A study of Mus musculus with 7 samples.

Results

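PPARalpha, encoded by Ppara, and 9 genes of the liver's fasting response were described in 7 mouse liver libraries, 3 from animals that received MDL-800 and 4 from control animals. The 10 genes were taken from the table by name: Ppara, Fgf21, Angptl4, Pdk4, Vnn1, Cyp4a10, Cyp4a14, Cidec, Plin2 and Creb3l3. Each name matched 1 of the 54532 genes listed. All animals were old C57BL/6 mice on a standard diet, and the treated animals were on that diet following supplementation with MDL-800, a small-molecule activator of the deacetylase SIRT6. Dose, length of treatment, sex, feeding state and hour of sampling are not given in the sources used. The labels do not say that each library is a different mouse, and p-values therefore reflect only the variation among these 7 libraries, part of which may be technical. The comparison asks which liver RNAs differ after MDL-800.

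PPARalpha is a nuclear receptor that binds fatty acids and, paired with the retinoid X receptor RXR, switches on genes for burning fat. In fasted liver, fatty acids released from adipose tissue activate it, and its targets raise mitochondrial, peroxisomal and microsomal fatty acid oxidation, ketone body synthesis and the hormone FGF21. The membrane-bound factor CREBH, encoded by Creb3l3, works with PPARalpha on some of these genes. SIRT6 has been described as a factor that promotes PPARalpha activity in liver.

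Most of the genes had higher mean levels in MDL-800 livers than in control livers, and none passed the test. On the log2(FPKM + 1) scale, where FPKM is fragments per kilobase of gene length, scaled to library depth, 9 of the 10 had a log2 fold change above 0, beside 54.2% of the 11394 genes tested, and 1 had a value below 0, beside 45.8%. A log2 fold change of at least 0.58 (1.5-fold) was found for 6 of the 10 (Cyp4a14, Fgf21, Ppara, Vnn1, Pdk4 and Cyp4a10), beside 2.33% of all genes tested, and the 10 genes were chosen with earlier results of these data known. The median over the 10 genes was 0.95, and the median over all genes tested was 0.02. Mean Ppara stood 2.15-fold, Vnn1 2.03-fold and Fgf21 2.55-fold above control in deposited FPKM, whereas Angptl4 was at 0.912 of control. With limma and Benjamini-Hochberg adjustment over all 11394 genes, 0 of the 10 had an adjusted p under 0.05, as did 0% of all genes tested. An unadjusted limma p under 0.05 was found for 3 of the 10 (Vnn1, Ppara and Fgf21, all higher), beside 3.23% of all genes in that direction, 1.62% in the lower and 4.85% in either direction. Values of the MDL-800 libraries lay wholly above those of the controls for 1 of the 10, Vnn1, beside 4.03% of all genes tested. They lay wholly below for 0 of the 10, beside 2.42% of all genes tested. With limma voom on recovered reads 0 of the 10 passed as well (0% of genes tested), and 6.56% of all genes had an unadjusted p under 0.05.

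The libraries were of like depth. Whole reads per gene, recovered from FPKM and gene length, summed to 17600066 to 19920469 per library. MDL-800 2 and control 1 held 3514 and 2173 reads of 4 Y-linked genes, and the other 5 libraries held 0 and are called Y-negative. Of these 5, control 3 also held 0 reads of Xist, the RNA of the inactive X chromosome, and the other 4 held 15495 to 21104. A count of 0 allows up to 3 reads, and covers counting error only. Albumin, which defines hepatocytes, was at 35737 to 62511 FPKM. In bulk tissue, fewer cells of a type and less RNA per cell cannot be told apart. Summed marker levels overlapped between the groups for Kupffer cells (131 to 453 FPKM in MDL-800 and 127 to 909 FPKM in control over 8 genes), neutrophils (11.7 to 82.4 and 22.7 to 291 FPKM over 5 genes), lymphocytes (2.80 to 15.4 and 7.34 to 37.8 FPKM over 6 genes) and cholangiocytes (28.8 to 90.8 and 24.2 to 54.8 FPKM over 5 genes). They also overlapped for sinusoidal endothelial cells (30.2 to 39.7 and 13.01 to 42.0 FPKM over 7 genes) and stellate cells (39.9 to 68.1 and 19.95 to 57.0 FPKM over 7 genes). None of these markers was at 0 in all libraries. The part of these cells in the values below was not tested.

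The regulatory sequence just upstream of the start site is shown for 4 of the genes, because PPARalpha acts on its targets through DNA and the levels of these genes are described beside those of Ppara. Windows of 250 bases before a RefSeq start (GRCm38.p6) were found for 6 of the 10 genes: Ppara, Fgf21, Pdk4, Cidec, Plin2 and Creb3l3. Each line runs 5′ to 3′ on the gene's strand, up to the base before the first annotated exon, and capitals mark a motif match. Plin2 lies at chr4:86670061-86670309 (minus strand), Creb3l3 at chr10:81098875-81099122 (minus), Fgf21 at chr7:45615491-45615740 (minus) and Pdk4 at chr6:5496310-5496528 (minus).
Plin2: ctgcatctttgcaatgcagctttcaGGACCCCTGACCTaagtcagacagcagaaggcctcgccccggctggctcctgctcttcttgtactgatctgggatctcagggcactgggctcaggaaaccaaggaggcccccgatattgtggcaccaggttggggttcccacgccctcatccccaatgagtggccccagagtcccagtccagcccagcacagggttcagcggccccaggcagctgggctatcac
Creb3l3: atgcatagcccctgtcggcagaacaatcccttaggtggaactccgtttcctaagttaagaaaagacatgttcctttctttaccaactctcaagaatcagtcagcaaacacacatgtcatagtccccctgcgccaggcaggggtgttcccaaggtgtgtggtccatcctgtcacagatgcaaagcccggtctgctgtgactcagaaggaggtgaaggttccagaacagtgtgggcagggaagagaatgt
Fgf21: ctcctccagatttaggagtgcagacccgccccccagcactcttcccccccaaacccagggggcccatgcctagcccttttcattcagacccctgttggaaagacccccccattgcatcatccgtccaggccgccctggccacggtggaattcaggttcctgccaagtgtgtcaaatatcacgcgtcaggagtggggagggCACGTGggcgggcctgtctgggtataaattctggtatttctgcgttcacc
Pdk4: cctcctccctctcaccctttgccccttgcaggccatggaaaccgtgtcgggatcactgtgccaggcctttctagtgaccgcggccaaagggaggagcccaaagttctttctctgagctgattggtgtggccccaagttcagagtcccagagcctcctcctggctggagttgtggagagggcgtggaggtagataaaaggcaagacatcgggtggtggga
The first motif searched, on both strands, was AGGTCA repeated after 1 base N, the arrangement that PPARalpha with RXR is known to bind, with up to 2 mismatches. It was in 3.24% of 32851 windows of this length. The Plin2 window held it once, on the opposite strand from 225 bases before the start, with 2 mismatches. The windows of Fgf21, Pdk4, Ppara and Cidec, and that of Creb3l3 printed above, held none. A window before a second start inside Creb3l3, not printed, held a match with 2 mismatches. The other motif was CACGTG, the E-box bound by basic helix-loop-helix factors, which reads alike on both strands, was searched without mismatches and does not overlap the first. It was in 6.02% of windows, and among these genes only in that of Fgf21, from 50 bases before the start. A match describes letters and not a site in use, and the absence of a match holds for these windows only.

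**Figure D1:**
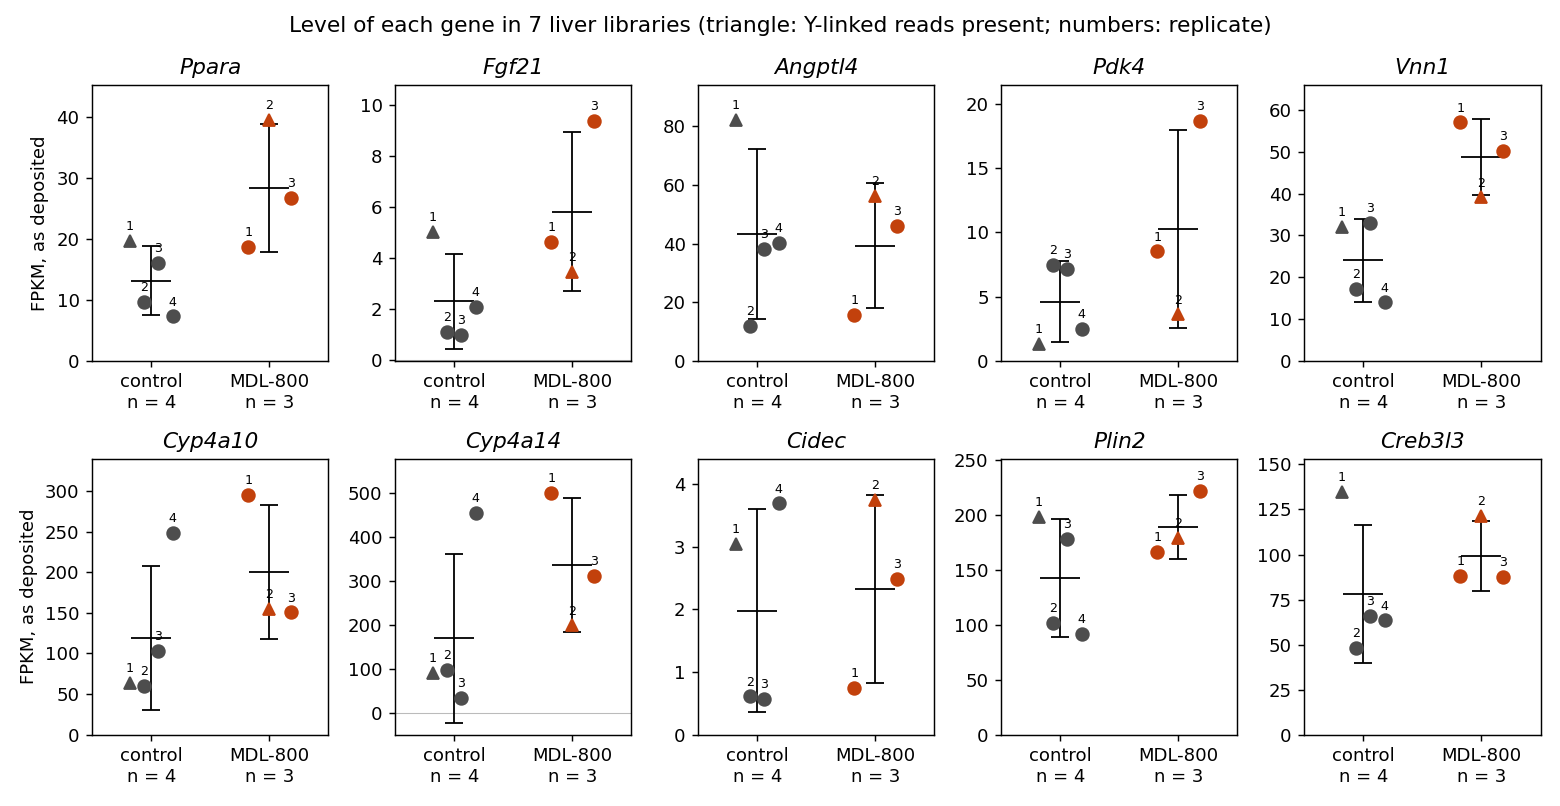
Deposited FPKM of each of the 10 genes (vertical axis, FPKM) in the 4 control and 3 MDL-800 libraries (horizontal axis). Each point is 1 library with its replicate number, triangles are the libraries with Y-linked reads, and bars are the mean ± SD. Only the Vnn1 points separate by group (39.0 to 57.0 FPKM in MDL-800 against 13.98 to 33 FPKM in control), and the Cyp4a14 point of control 4 sits at 455.0 FPKM beside 33.8 to 97.8 FPKM in the other controls.

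Ppara itself (ENSMUSG00000022383, chromosome 15, 85734983 to 85802819, GRCm38) encodes the receptor. It was at 18.7, 39.5 and 26.7 FPKM in MDL-800 1, 2 and 3, and at 19.6, 9.65, 16.0 and 7.27 FPKM in control 1, 2, 3 and 4. The 2 highest values were MDL-800 libraries, and the groups overlapped because control 1 lay just above MDL-800 1. The means were 28.3 ± 10.5 FPKM (SD, n = 3) and 13.1 ± 5.70 FPKM (SD, n = 4). The log2 fold change was 1.08 (standard error 0.38, 95% interval from 0.19 to 1.97, limma adjusted p = 0.950, unadjusted p = 0.0238). Both libraries with Y-linked reads held the highest Ppara of their group, and with a limma term for those reads beside the group, they stood 0.82 higher on the log2 scale (adjusted p = 0.177). That term passed for 0 of the 10 genes, beside 2.42% of all genes tested. Within the 5 Y-negative libraries Ppara was at 18.7 and 26.7 FPKM in MDL-800 and at 7.27 to 16.0 FPKM in control. The log2 fold change there was 1.03 (limma adjusted p = 0.901). In the only Y-positive pair, with no test, MDL-800 2 was at 39.5 FPKM and control 1 at 19.6 FPKM. Over all alternatives the Ppara value ran from 0.82 to 1.34, and its adjusted p from 0.558 to 0.9999.

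Genes whose levels tracked Ppara closely over the 7 libraries included Cog7, Emc3, Nqo2 and Map4k3, by Pearson's correlation of log2(FPKM + 1) among all genes tested outside the 10. Cog7, which encodes a subunit of a Golgi tethering complex, had r = 0.988 (rho = 0.964), and its level ran only from 2.64 to 4.06 FPKM, beside 7.27 to 39.5 FPKM for Ppara. Emc3 had r = 0.987 and ranked the 7 libraries in the same order as Ppara (rho = 1). The r of Nqo2 and of Map4k3 was 0.987 for each. These were among the 5 highest of the values over all genes tested, each over 7 points that share a library and its FPKM denominator, so they describe likeness and carry no p.

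Vnn1 (chromosome 10, 23894688 to 23905343) encodes vanin-1, a pantetheinase that recycles vitamin B5 from coenzyme A breakdown and is a known PPARalpha target in liver. It was at 57.0, 39.0 and 50.1 FPKM in MDL-800 1, 2 and 3, and at 32.0, 17.1, 33 and 13.98 FPKM in control 1 to 4. Every MDL-800 library lay above every control library, and control 2 and control 4 were the lowest, as they were for Ppara. The log2 fold change was 1.07 (standard error 0.33, 95% interval from 0.28 to 1.85, limma adjusted p = 0.950, unadjusted p = 0.0145). It ran from 0.85 without control 4 to 1.24 without control 3, and was 1.38 in the Y-negative libraries. The neighbouring pantetheinase gene Vnn3 had a log2 fold change of 0.17, from 69.8 ± 15.2 FPKM (SD, n = 3) after MDL-800, beside 63.6 ± 19.8 FPKM (SD, n = 4) in controls.

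Fgf21 (chromosome 7, 45613886 to 45615490) encodes a hormone that liver secretes in fasting and other nutrient stress. It was at 4.63, 3.45 and 9.35 FPKM in MDL-800 1, 2 and 3, resting on 76, 51 and 156 reads. In control 1 to 4 it was at 5.002, 1.08, 0.965 and 2.07 FPKM, resting on 69, 20, 13 and 29 reads. MDL-800 3 was the highest library, and control 1 lay above 2 of the 3 MDL-800 libraries. The log2 fold change was 1.11 (standard error 0.45, 95% interval from 0.04 to 2.19, limma adjusted p = 0.950, unadjusted p = 0.0437). It was 1.71 within the Y-negative libraries (limma adjusted p = 0.628) and 0.76 without MDL-800 3. In the Y-positive pair the order was the other way, 3.45 FPKM in MDL-800 2 and 5.002 FPKM in control 1, and whether that differs from the Y-negative libraries was not tested. Because Fgf21 is low, the pseudocount of 1 understates its change, and the value was 1.49 with a pseudocount of 0.1 and 1.56 with voom. Pancreatic acinar cells also express Fgf21, and of 8 acinar markers 5 were at 0 in all 7 libraries (Cpa1, Ctrb1, Pnlip, Cel and Amy2b), while the summed level of the list was 4.97 to 20.3 FPKM in MDL-800 and 8.12 to 19.6 FPKM in control, mostly Cela1.

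Cyp4a10 and Cyp4a14 encode microsomal fatty acid omega-hydroxylases, classic markers of PPARalpha activation in rodents. They lie side by side on chromosome 4 (115518264 to 115533649 and 115486200 to 115496142). Cyp4a10 was at 296, 155 and 151 FPKM in MDL-800 1 to 3 and at 63.7, 59.7, 103 and 248 FPKM in control 1 to 4. Cyp4a14 was at 499, 198 and 311 FPKM in MDL-800 1 to 3 and at 89.6, 97.8, 33.8 and 455.0 FPKM in control 1 to 4. For both genes MDL-800 1 was the highest library and control 4 the next, and the other 3 controls lay below every MDL-800 library. Control 4 thus held the lowest Ppara, Vnn1 and Plin2 of all 7 libraries together with the second highest Cyp4a10 and Cyp4a14.

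The log2 fold change of Cyp4a14 was 1.53 (standard error 0.82, 95% interval from -0.40 to 3.45), and that of Cyp4a10 was 0.93 (standard error 0.53, 95% interval from -0.31 to 2.18). Neither passed limma (adjusted p = 0.950 for each). Without control 4 the values were 2.21 for Cyp4a14 and 1.37 for Cyp4a10, without control 3 Cyp4a14 was at 0.98, and without MDL-800 1 Cyp4a10 was at 0.62. Cyp4a10 reads are uncertain, since 30.5% of the 50-base windows of its transcript also occur in Cyp4a31 or Cyp4a32, whereas 0.245% of those of Cyp4a14 occur in another gene. Cyp4a32 averaged 13.2 ± 6.87 FPKM (SD, n = 3) after MDL-800, beside 9.59 ± 6.57 FPKM (SD, n = 4) in controls, and Cyp4a31 averaged 3.29 ± 1.84 and 5.44 ± 5.58 FPKM. Of 12 other tested Cyp4 genes, 5 had a value above 0 and 7 below, with a median of -0.11 and 0 called. Among those above 0, Cyp4a12a and Cyp4a12b rested on the libraries with Y-linked reads. Cyp4a12a was at 82.9 FPKM in MDL-800 2 and 66.7 FPKM in control 1, and at 0 to 0.0956 FPKM in the others. Cyp4a12b was at 15.3 and 11.4 FPKM in those libraries, and at 0 in the others.

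Pdk4 (chromosome 6, 5483351 to 5496309) encodes a kinase that shuts off pyruvate dehydrogenase and so spares glucose in fasting. It was at 8.51, 3.61 and 18.6 FPKM in MDL-800 1 to 3 and at 1.34, 7.47, 7.16 and 2.47 FPKM in control 1 to 4. MDL-800 3 stood alone at the top, and MDL-800 2 lay below control 2 and control 3. The log2 fold change was 0.97 (standard error 0.63, 95% interval from -0.52 to 2.45, limma adjusted p = 0.950), and it was 0.44 without MDL-800 3 and 1.49 without MDL-800 2. The libraries with Y-linked reads held the lowest Pdk4 of their groups, with a log2 difference of -1.49 (limma term, adjusted p = 0.129). Of 6 other tested genes of pyruvate dehydrogenase and its kinases and phosphatases, 5 had a value above 0, with a median of 0.42. Pdpr, a regulator of the phosphatase, had the smallest p of them (log2 fold change 0.71, limma adjusted p = 0.950).

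Plin2 and Cidec encode coats of lipid droplets. Plin2 (chromosome 4, 86648386 to 86670060) covers droplets in hepatocytes and was at 166, 179 and 222 FPKM in MDL-800 1 to 3 and at 198, 102, 178 and 91.8 FPKM in control 1 to 4. Control 2 and control 4 were again low, and control 1 and control 3 lay within the MDL-800 range. Its log2 fold change was 0.47 (standard error 0.31, 95% interval from -0.26 to 1.20, limma adjusted p = 0.950), and 0.29 without control 4. Cidec (chromosome 6, 113424634 to 113435760), which fuses droplets, was at 0.749, 3.74 and 2.49 FPKM in MDL-800 1 to 3 and at 3.05, 0.609, 0.571 and 3.69 FPKM in control 1 to 4. Each group held both a value under 1 FPKM and one above 3 FPKM, and the lowest values rested on 15 to 24 reads. Its log2 fold change was 0.22 (standard error 0.52, 95% interval from -1.01 to 1.45), and it was below 0 without MDL-800 2, control 2 or control 3 (-0.092, -0.015 and -0.026) and 0.63 without MDL-800 1.

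Adipocytes also express Cidec, and adipocyte markers were low: Lep was at 0 in all 7 libraries, and Adipoq was at 0 in the 3 MDL-800 libraries, control 1 and control 2, at 0.0511 FPKM in control 3 and at 1.52 FPKM in control 4. The summed level of the 8 adipocyte markers was 2.80 to 12.4 FPKM in MDL-800 and 3.32 to 21.2 FPKM in control. Its part in the Cidec value of control 4 was not tested.

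Creb3l3 (chromosome 10, 81084324 to 81098874) encodes CREBH, a liver transcription factor held in the endoplasmic reticulum until it is cut free in fasting or stress. It was at 88.0, 121 and 87.4 FPKM in MDL-800 1 to 3 and at 134.5, 48.4, 65.9 and 63.4 FPKM in control 1 to 4. The 2 highest libraries were those with Y-linked reads, 1 from each group. The term for those reads was 0.85 on the log2 scale (limma adjusted p = 0.0975). Within the Y-negative libraries the log2 fold change was 0.57 (limma adjusted p = 0.874). Over all 7 libraries it was 0.43 (standard error 0.34, 95% interval from -0.38 to 1.24). It was 0.73 without control 1 and 0.24 without control 2.

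Angptl4 (chromosome 17, 33773750 to 33781575) encodes a secreted inhibitor of lipoprotein lipase that PPARs induce. It was at 15.6, 56.4 and 46.0 FPKM in MDL-800 1 to 3 and at 82.0, 11.9, 38.2 and 40.3 FPKM in control 1 to 4. Control 1 was the highest and control 2 the lowest library, so the controls spanned the whole MDL-800 range. The log2 fold change was -0.03 (standard error 0.68, 95% interval from -1.64 to 1.58, limma adjusted p = 0.996). It was 0.52 without MDL-800 1, 0.37 without control 1 and -0.53 without control 2. Among 10 other tested genes of the ANGPTL and lipoprotein lipase system, 5 were above and 5 below 0. Angptl8, a hormone that feeding raises, averaged 42.7 ± 1.24 FPKM (SD, n = 3) after MDL-800, beside 72.9 ± 24.3 FPKM (SD, n = 4) in controls, with control 3 (40.4 FPKM) below all 3 MDL-800 libraries (log2 fold change -0.69, limma adjusted p = 0.950).

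**Figure D2:**
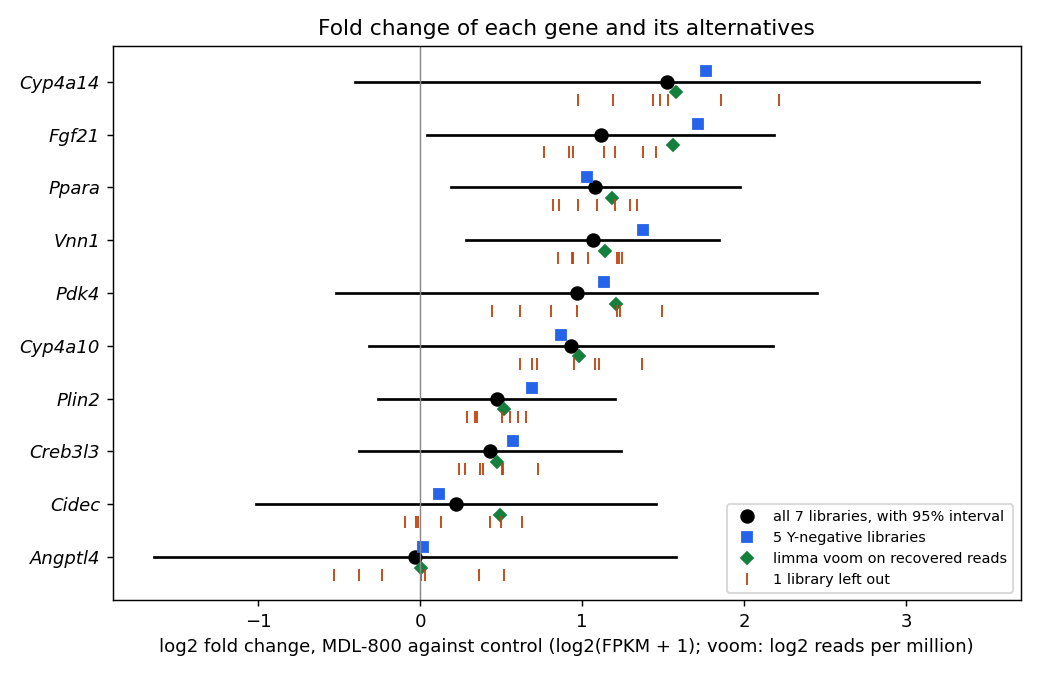
Log2 fold change of MDL-800 against control (horizontal axis) for each of the 10 genes (vertical axis). Black points and lines are the limma value on log2(FPKM + 1) and its 95% interval over 7 libraries, blue squares the 5 Y-negative libraries, green diamonds limma voom, and orange ticks the values with 1 library left out. The intervals of Ppara, Vnn1 and Fgf21 lie above 0 before adjustment for the 11394 genes tested, and the ticks of Angptl4 and Cidec fall on both sides of 0.

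The genes differed in which libraries were high. Ppara, Vnn1, Plin2, Creb3l3 and Fgf21 were all below their own 7-library means in control 2 and control 4 (by 0.37 to 1.15 on the log2 scale). They were above those means in every MDL-800 library (by 0.09 to 1.335). Cyp4a10 and Cyp4a14 were above their means in control 4 (by 0.91 and 1.41) and, most of all, in MDL-800 1 (by 1.16 and 1.54). Angptl4 and Cidec were below their means in MDL-800 1 (-1.12 and -0.69), where Vnn1, Cyp4a10 and Cyp4a14 had their highest values. By rank, control 2 was among the 2 lowest libraries for 8 of the 10 genes and control 3 among the 3 highest for none. MDL-800 2 and MDL-800 3 were among the 3 highest for 7 of the 10 genes each, MDL-800 1 and control 1 for 6 each, control 4 for 3 and control 2 for 1, so the ranks were not separated by group. Control 2 also held the highest summed Kupffer cell, neutrophil and sinusoidal endothelial marker levels (909, 291 and 42.0 FPKM). The highest lymphocyte sum was in control 4 (37.8 FPKM), and the highest stellate and cholangiocyte sums were in MDL-800. Control 2 also had the lowest ratio of summed reads to FPKM denominator (0.995, beside 1.22 to 1.25 in the other controls). The part of these cells and of that ratio in the ranks was not tested.

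**Figure D3:**
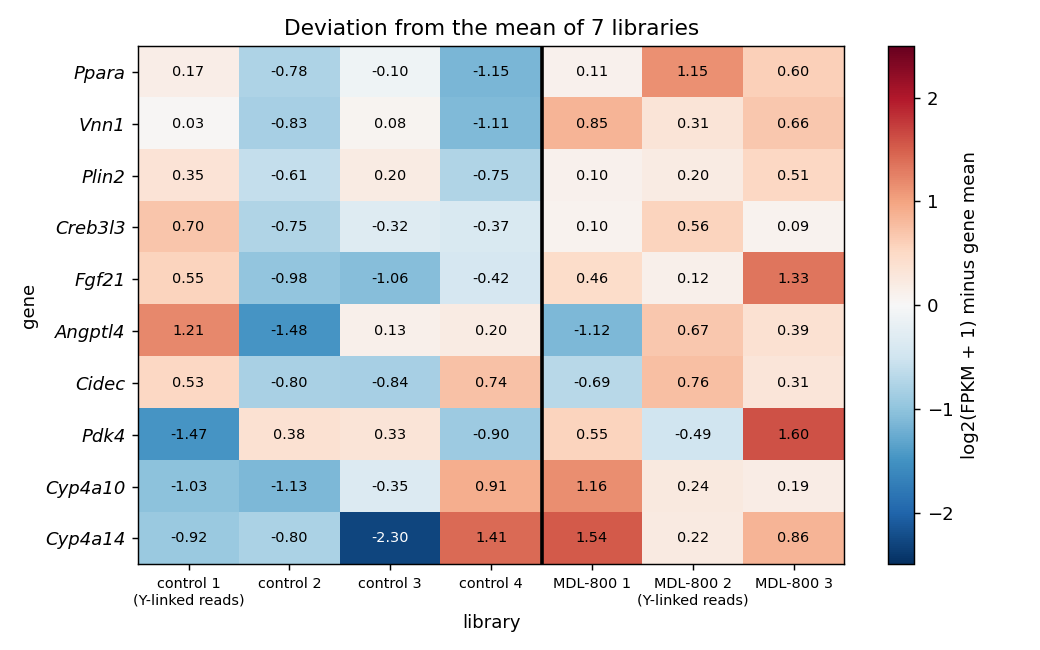
Deviation of each gene (rows) in each library (columns) from the gene's mean over the 7 libraries, in log2(FPKM + 1). Red is above and blue below the mean, and the vertical line separates the 4 control from the 3 MDL-800 libraries. Ppara, Vnn1, Plin2, Creb3l3 and Fgf21 are blue in control 2 and control 4, and Cyp4a14 ranges from -2.30 in control 3 to 1.54 in MDL-800 1.

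Levels per length also ordered the 10 genes. Mean FPKM over the 7 libraries was 241 for Cyp4a14, 162 for Plin2, 154 for Cyp4a10, 87.0 for Creb3l3, 41.5 for Angptl4, 34.6 for Vnn1, 19.6 for Ppara, 7.03 for Pdk4, 3.79 for Fgf21 and 2.13 for Cidec. The ranges of each pair of neighbours in that order overlapped, and the order was not the same in both groups. Mean Cyp4a10 was above mean Plin2 in MDL-800 (200.7 and 189 FPKM) and below it in control (118.7 and 143 FPKM). Mean Vnn1 was above mean Angptl4 in MDL-800 (48.7 and 39.3 FPKM) and below it in control (24.02 and 43.1 FPKM).

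The rest of the pathway was described from 14 lists chosen with earlier results of these data known, which is no independent evidence of direction. Of 167 listed genes outside the 10, 151 were tested and 0 passed limma, and 107 had a value above 0 (70.9%, beside 54.2% of all genes tested). An unadjusted limma p under 0.05 was found for 15 of the 151 in the higher direction, beside 368 of all 11394 genes tested (3.23%). In the lower direction it was found for 2 of the 151, beside 185 of the 11394 (1.62%). Groups did not overlap in the higher direction for 7 of the 151 (4.64%, beside 4.03% of all genes tested), a share near the background for non-overlap.

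Among partners of PPARalpha, its sister receptor gene Pparg, a driver of fat storage, averaged 7.57 ± 1.09 FPKM (SD, n = 3) after MDL-800, beside 4.63 ± 1.95 FPKM (SD, n = 4) in controls. Control 2 (7.07 FPKM) lay inside the MDL-800 range, and the log2 fold change of Pparg was 0.67 (limma adjusted p = 0.950). Ppard had -0.67, and Rxra, the main hepatic RXR gene, 0.11. Coactivator and corepressor genes lay near 0, with 7 of 12 above 0 and a median of 0.01.

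Of 24 tested mitochondrial and peroxisomal PPARalpha targets, 22 had a value above 0 (91.7%, beside 54.2% of all genes tested) with a median of 0.40. The groups did not overlap for 4 of them (Ehhadh, Cpt1a, Pex11a and Pex19; 16.7%, beside 4.03% of all genes tested). Pex11a, which drives peroxisome division, averaged 34.8 ± 1.86 FPKM (SD, n = 3) after MDL-800, beside 19.5 ± 8.93 FPKM (SD, n = 4) in controls, with control 1 (32.3 FPKM) just under the lowest MDL-800 library (32.7 FPKM). Acaa1b, a peroxisomal thiolase gene, had the highest log2 fold change of that list, 0.997, and control 1 (595 FPKM) lay above 2 MDL-800 libraries. Ucp2, which encodes a mitochondrial carrier, had the lowest, -0.70. Of 23 acyl-CoA thioesterase and other inducible targets, 20 were above 0 (87.0%, beside 54.2% of all genes tested) with a median of 0.29. The groups did not overlap for 1 of the 23 (4.35%, beside 4.03% of all genes tested), a share near the background. Aldh3a2, which oxidizes fatty aldehydes, averaged 107 ± 7.96 FPKM (SD, n = 3) after MDL-800, beside 74.4 ± 13.8 FPKM (SD, n = 4) in controls, without overlap. Pex11a, Pex19, Acaa1b and Ucp2 were named after their values were seen. No gene of these lists passed limma over all genes.

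Among genes of fatty acid handling, which include uptake, binding, activation, synthesis and lipolysis, 10 of 12 were above 0 with a median of 0.43. Fabp2, a fatty acid binding protein gene, had the smallest p (134 ± 24.0 FPKM, SD, n = 3, against 67.4 ± 36.1 FPKM, SD, n = 4, limma adjusted p = 0.950), and control 1 lay above MDL-800 3. Pnpla2, the gene of the lipase that frees fatty acids from droplets, had -0.24. Of 9 other tested lipid droplet genes 7 were above 0 with a median of 0.26. Plin4, which coats droplets, had the highest value, at 5.14, 3.69 and 7.84 FPKM in MDL-800 1 to 3 and 3.13, 0.356, 0.342 and 2.30 FPKM in control 1 to 4 (log2 fold change 1.51, standard error 0.47, limma adjusted p = 0.950, unadjusted p = 0.0144). The groups did not overlap for 1 of the 9, Plin4 (11.1%, beside 4.03% of all genes tested). Control 2 and control 3, the lowest libraries for Cidec too, held the least Plin4.

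Genes around FGF21, CREBH and fasting were mixed. Of 4 other tested genes of the FGF21 system only 1, Klb, was above 0 and 3 were below, with a median of -0.03. Klb, which encodes the FGF21 coreceptor, averaged 8.15 ± 1.25 FPKM (SD, n = 3) after MDL-800, beside 5.60 ± 0.988 FPKM (SD, n = 4) in controls. Its groups did not overlap, as was so in that direction for 4.03% of all genes tested. The log2 fold change of Klb was 0.48 (limma adjusted p = 0.950), while the receptor gene Fgfr4 had -0.02. Of 8 other tested genes of the CREB3 family, its proteases and its targets 6 were above 0, and Fads2, a fatty acid desaturase gene, had 0.80 (limma adjusted p = 0.950). Of 15 other fasting and glucocorticoid response genes 8 were above and 7 below 0, with a median of 0.04. Pck1, the gluconeogenic enzyme gene, had -0.22 and G6pc 0.44, and both were named after their values were seen. Of 10 other tested coenzyme A genes 8 were above 0, with a median of 0.14.

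**Figure D4:**
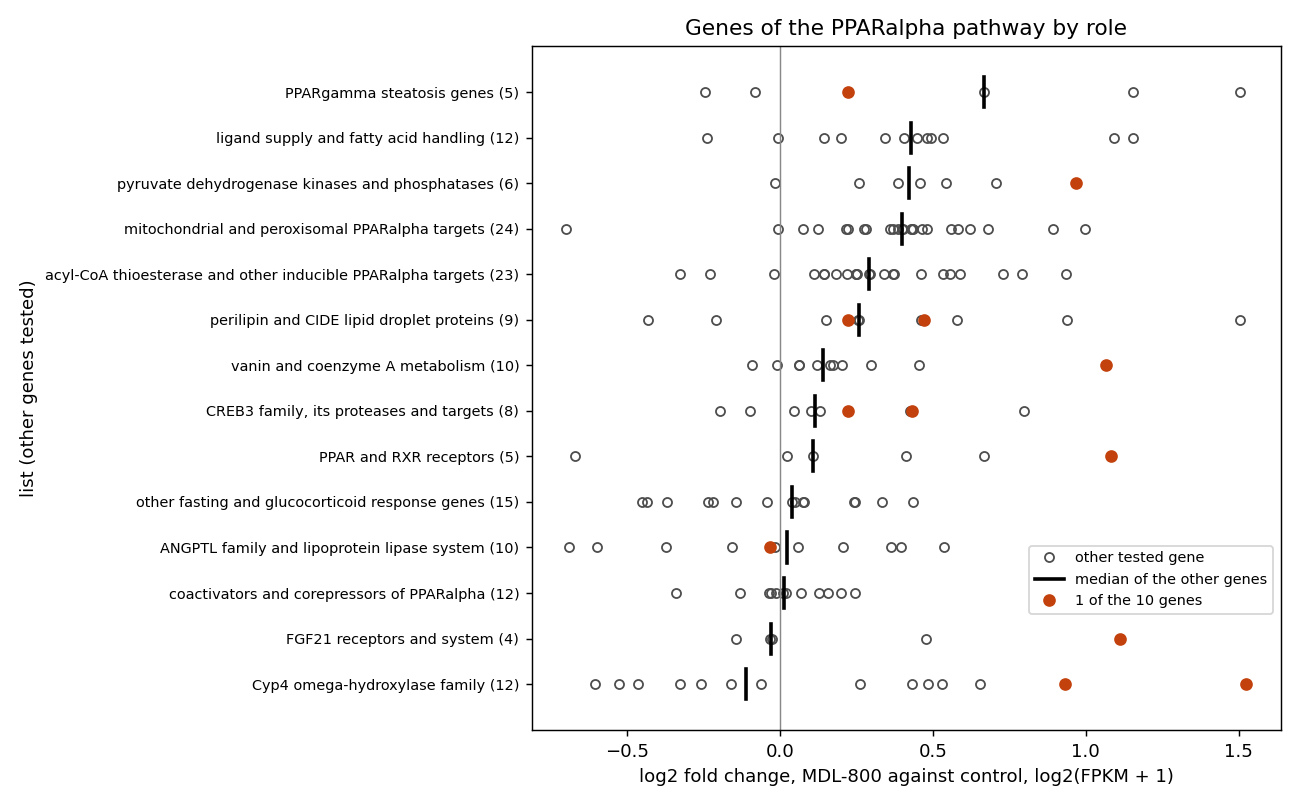
Log2 fold change of MDL-800 against control (horizontal axis) for the tested genes of 14 pathway lists (vertical axis, number of other genes tested in brackets). Open circles are genes outside the 10, filled orange circles are the 10 genes in the lists that hold them, and black bars are the median of the other genes. The bars of both PPARalpha target lists stand at 0.40 and 0.29. Those of PPARgamma steatosis (3 genes above and 2 below 0), fatty acid handling and pyruvate dehydrogenase genes stand higher, at 0.67, 0.43 and 0.42. Those of coactivators and of fasting and glucocorticoid genes stand at 0.01 and 0.04, and the lowest is that of the Cyp4 family at -0.11.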

How the data were processed

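RNA was measured in 7 mouse liver libraries. Per the labels' protocols, cDNA was made from lysed liver by a SMARTer kit for low input, then sheared and made into libraries by an NEBNext kit, which keeps no strand information. The values are FPKM as the authors deposited them, in a single table that also gives each gene's length. The submitters' processing notes list Bowtie2 2.1.0, TopHat2 2.0.14, Cufflinks 2.2.1 and the build mm9; the read counter is not given in the sources used. Coordinates in the table are GRCm38, because 53756 of the 54409 identifiers found in GENCODE M21 match it in chromosome and start. None of the 10 genes overlaps another annotated gene.

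Multiplying FPKM by length gave whole reads after division by 1 constant per library, for 100% of nonzero values within a tolerance of 0.01. Summed reads divided by the FPKM denominator came to 0.995 in control 2, 1.06 in MDL-800 1, 1.09 in MDL-800 3 and 1.22 to 1.28 in the other libraries. Log2(FPKM + 1) of the 11394 genes whose mean reached 1 FPKM was tested two-sided with limma 3.58.1 in R 4.3.3 (trended eBayes), p-values were adjusted by Benjamini-Hochberg (threshold 0.05), and all 10 genes passed that filter. Motif and window counts used Python 3.11.15, and plots matplotlib 3.10.9. The procedure was tested on simulated data.

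The 10 genes, the pathway and marker lists and the alternatives were chosen with earlier results of these data known. Named genes were the 10, the 5 most like Ppara, and the gene of smallest p on either side of 0 in each list, of which some are given as counts only. Some genes that this rule names are not reported here. Alternatives were a pseudocount of 0.1, no filter, a filter at 5 FPKM, quantile normalization, median scaling, summed reads as denominator, a replicate block, array weights, voom, a term for Y-linked reads, the Y-negative libraries and leaving out each library. The coefficient of the Y-linked term was read after seeing the data.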

Additional observations from a re-analysis of the deposited data

Results flagged for a closer look

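Cyp4a14 in control 4, at 455.0 FPKM as deposited, stood far from the other 3 controls (33.8 to 97.8 FPKM). In FPKM the gap to its neighbour was 0.848 of the range of the 4 controls, above the cutoff used. Chance passes that cutoff in about 1 of 20 groups if values are normally distributed, which FPKM need not be. On the log2(FPKM + 1) scale used for the tests, control 1 to 4 deviated from the gene's mean by -0.92, -0.80, -2.30 and 1.41. There control 3 also stood apart, and the cutoff was not applied on that scale. Cyp4a14 was the only gene of the 10 for which a control library was that far out in FPKM, and groups of 3 were not examined. With 10 genes screened at that rate, 1 flag can arise by chance. Without control 4 the log2 fold change of Cyp4a14 was 2.21 in place of 1.53.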

How the results depend on the processing

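The median log2 fold change over the 10 genes was 0.95 and stayed above 0 in every alternative listed, from 0.64 to 0.95 when 1 library was left out and from 0.83 with the replicate block to 1.06 with voom. Between 8 and 10 genes lay above 0 when 1 library was left out, and 7 of the 8 genes left with a mean of at least 5 FPKM, which drops Fgf21 and Cidec. No gene among the 10 passed in any alternative. Over all genes 0 passed in each alternative, except that leaving out 1 library gave 0 to 1 (1 without MDL-800 1 and 1 without control 1), and the count at an unadjusted p under 0.05 ran from 190 with the replicate block to 948 without control 1 at the same filter. It was 553 as reported, of which 368 were higher in MDL-800, beside 620 of 757 with summed reads as denominator, 631 of 748 with voom, 116 of 190 with the replicate block and 247 of 511 without control 2. Angptl4 turned above 0 with summed reads as denominator (0.0076), the replicate block (0.030), voom (0.0071) and the Y-negative libraries (0.019), and ran from -0.53 to 0.52 when 1 library was left out. Cidec turned below 0 with array weights (-0.071) and ran from -0.092 to 0.63 when 1 library was left out. The cause was not tested. Deviations of same-numbered libraries from their group means correlated at -0.59, -0.55 and 0.06 for numbers 1, 2 and 3. The libraries with Y-linked reads, MDL-800 2 and control 1, correlated at 0.77. Numbers 1 and 2 each join a library with Y-linked reads to one without, so these values cannot decide whether the numbers pair the libraries. The replicate block, which leaves out control 4, gave 0.85 for Ppara and 0.85 for Vnn1. At 13 to 156 reads, Fgf21 is limited by depth, as is Cidec at 15 to 108 reads.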
